A study of Mus musculus with 5 samples.

Results

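Mesothelin (Msln), the surface glycoprotein Gp2 and the membrane mucins Muc1, Muc4, Muc16 and Muc20 were followed in tumour cells of the mouse prostate. These 6 genes were represented by 9 of the 45037 probe sets of the array, namely all those whose only gene symbol in the platform annotation is one of them. The genes were chosen from results of the same arrays, in which Msln and Gp2 were among the genes with lower signal in nTKO cells, and the mucins were added as a family. The difference between the genotypes is therefore given for these genes as a description, with no test.

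The 5 arrays came from 5 mice on a C57BL/6 background. Tumours were dissociated on ice and the tumour cells collected with beads against EpCAM, an epithelial surface protein. The 2 nTKO mice carried floxed Pygo2 together with the floxed alleles of the nDKO mice, which include Smad4, and were 31.43 (nTKO 1) and 16 weeks old (nTKO 2). The 3 nDKO mice carried those alleles without floxed Pygo2 and were 15.86 (nDKO 1), 10.71 (nDKO 2) and 10.71 weeks old (nDKO 3). In both genotypes the label names the Probasin driver, a promoter active in prostate epithelium. No mice without the shared floxed alleles were measured, and the nTKO mice were older on average. Whether every collected cell carried the deletions is not known here. Smad4 is the common mediator of TGF-beta signalling, and Pygo2 is a chromatin-reading co-activator of beta-catenin in the Wnt pathway.

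Mesothelin is held in the membrane by a glycosylphosphatidylinositol (GPI) anchor. It is cut from a precursor by furin, is normally found on the mesothelial lining of body cavities, and appears on many carcinomas. Its known ligand in human cells is MUC16, the carrier of the CA125 antigen. Gp2 is a GPI-anchored protein with a zona pellucida domain, best known from the zymogen granules of the pancreas and from the M cells of the gut, where it binds bacterial fimbriae. Membrane mucins carry a long, heavily O-glycosylated outer region and a short tail in the cell. The tail of human MUC1 binds beta-catenin, rat Muc4 is a ligand of ErbB2, and human MUC20 has been found with the receptor MET.

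In the GRCm38.p6 annotation of RefSeq, Msln lies on chromosome 17 (chr17:25748613-25754378), Gp2 on chromosome 7 (chr7:119442537-119459272), Muc1 on chromosome 3 (chr3:89229056-89233381) and Muc16 on chromosome 9 (chr9:18495445-18674821). Muc4 (chr16:32735886-32782391) and Muc20 (chr16:32777419-32797435) are neighbours on chromosome 16, are transcribed towards each other, and overlap over 4973 bp. Where their probe sets lie relative to the overlap is not known here.

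RefSeq promoters of the same build were found for 5 of the 6 genes, all but Msln. The 250 bases upstream of the start are shown for Gp2 and Muc1, both lowest in nTKO 2, and for Muc20, which was highest there. The Gp2 sequence is chr7:119459273-119459522 (minus strand), that of Muc1 chr3:89228806-89229055 (plus strand) and that of Muc20 chr16:32797436-32797685 (minus strand). Each runs 5′ to 3′ along the gene, and capitals mark the TATA box letters TATAAA and the GC box letters GGGCGG on either strand.
Gp2: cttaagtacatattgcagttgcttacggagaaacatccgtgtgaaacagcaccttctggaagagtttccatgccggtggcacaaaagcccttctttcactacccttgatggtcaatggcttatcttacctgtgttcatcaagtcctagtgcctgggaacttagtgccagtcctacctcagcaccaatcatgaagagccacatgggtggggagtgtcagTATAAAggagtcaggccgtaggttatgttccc
Muc1: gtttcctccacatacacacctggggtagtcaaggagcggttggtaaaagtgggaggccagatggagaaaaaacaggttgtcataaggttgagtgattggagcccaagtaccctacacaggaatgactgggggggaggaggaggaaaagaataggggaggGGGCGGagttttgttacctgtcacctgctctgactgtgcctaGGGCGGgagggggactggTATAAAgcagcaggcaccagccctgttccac
Muc20: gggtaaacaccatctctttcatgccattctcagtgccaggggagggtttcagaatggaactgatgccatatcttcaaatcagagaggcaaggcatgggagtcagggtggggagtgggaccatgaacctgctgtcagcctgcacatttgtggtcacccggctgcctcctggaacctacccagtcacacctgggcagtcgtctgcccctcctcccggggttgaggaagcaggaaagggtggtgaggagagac

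The letters TATAAA stood 32 to 27 bases upstream of the start in Gp2, 31 to 26 in Muc1 and 36 to 31 in Muc4, and were not found in Muc16 or Muc20. Over all 32851 promoters of the table, 12.4% held them in the same window. GGGCGG occurred at 2 places in Muc1, where 32.7% of all promoters hold it. Other motifs searched on both strands were CTTTGA (TCF/LEF), CATTCC (TEAD), TGANTCA (AP-1), TGTTCT (steroid receptor) and CACCTG (E-box). CTTTGA, held by 13.8% of all promoters, and TGANTCA, held by 6.75%, were in none of the 5 windows. CATTCC was found in Muc1 and Muc4 (12.6% of all promoters), CACCTG at 2 places in Muc1 and 1 in Muc20 (17.2%), and TGTTCT in Muc16 (16.1%). None of the listed motifs overlapped another in these windows. The Muc16 window (chr9:18674604-18674853, minus strand) lies mostly inside the gene as placed above. Its start is thus not the end of the annotated gene, and its motifs belong to that other start.

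All values are log2 signals, on which a step of 1 is a factor of 2, and signals of different probe sets are not compared with each other. Array medians lay between 4.94 and 4.98. The targeted gene Pygo2 measured 7.30 and 6.35 in nTKO cells, against 8.65, 8.62 and 8.72 in nDKO cells, lower in each nTKO mouse. Smad4 gave a signal in both genotypes by its brightest probe set, at 9.76 and 10.37 in nTKO cells and 9.63, 9.88 and 9.88 in nDKO cells. Where the probes lie relative to the deleted parts of these genes is not known here. The epithelial marker Epcam was at 13.24 and 13.41 in nTKO cells and at 12.94 to 13.48 in nDKO cells, and the luminal keratin Krt8 lay between 12.96 and 13.55 on all arrays. nTKO 1 and nDKO 1 stood apart from the other arrays by squamous genes, whose median was 9.91 in nTKO 1 and 5.68 in nTKO 2, against 10.36 in nDKO 1, 6.47 in nDKO 2 and 6.08 in nDKO 3 (16 of 16 genes measured). The suprabasal keratin Krt10 was at 13.04 in nTKO 1 and 6.90 in nTKO 2, against 13.03 in nDKO 1, 6.93 in nDKO 2 and 6.71 in nDKO 3.

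Msln and Gp2, the 2 GPI-anchored proteins, had lower signal in each nTKO mouse than in any of the nDKO mice. Msln measured 5.84 and 6.49 in nTKO cells, against 8.0, 7.42 and 7.13 in nDKO cells. The groups did not overlap, and 0.64 log2 units separated the higher nTKO mouse from the lowest nDKO mouse. The means were 6.17 ± 0.46 in nTKO cells (SD, n = 2) and 7.52 ± 0.44 in nDKO cells (SD, n = 3), a log2 difference of -1.35 (SE 0.35) that puts the nTKO signal at 39.2% of that of nDKO cells. Msln was highest in nDKO 1 and lowest in nTKO 1, the 2 arrays with the high squamous median. The part of that state in the difference was not tested. Without both of these mice the difference was -0.785, where the sign was fixed in advance because the groups did not overlap.

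Gp2 measured 8.22 and 7.22 in nTKO cells, against 9.44, 8.84 and 8.64 in nDKO cells. Here nTKO 2 was the lowest array and the gap between the groups was 0.42. The means were 7.72 ± 0.71 in nTKO cells (SD, n = 2) and 8.97 ± 0.42 in nDKO cells (SD, n = 3), a log2 difference of -1.25 (SE 0.41), or 41.9% of the nDKO signal. The 2 nTKO mice were 1 log2 unit apart, and the difference was -0.75 without nTKO 2 and -1.75 without nTKO 1. With log2 age as a covariate it was -2.21. Between the mice of like age (nTKO 2 less nDKO 1) it was -2.22, but these were the lowest and the highest array. They also differed in squamous genes, with Krt10 at 6.90 in nTKO 2 and 13.03 in nDKO 1.

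The order of the mice thus differed between the 2 genes. For both, the 3 nDKO mice came in the order nDKO 1, nDKO 2, nDKO 3, but nTKO 1 was the lower nTKO mouse for Msln and the higher one for Gp2. In bulk RNA, fewer cells with a transcript and less of it per cell cannot be told apart.

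**Figure D1:**
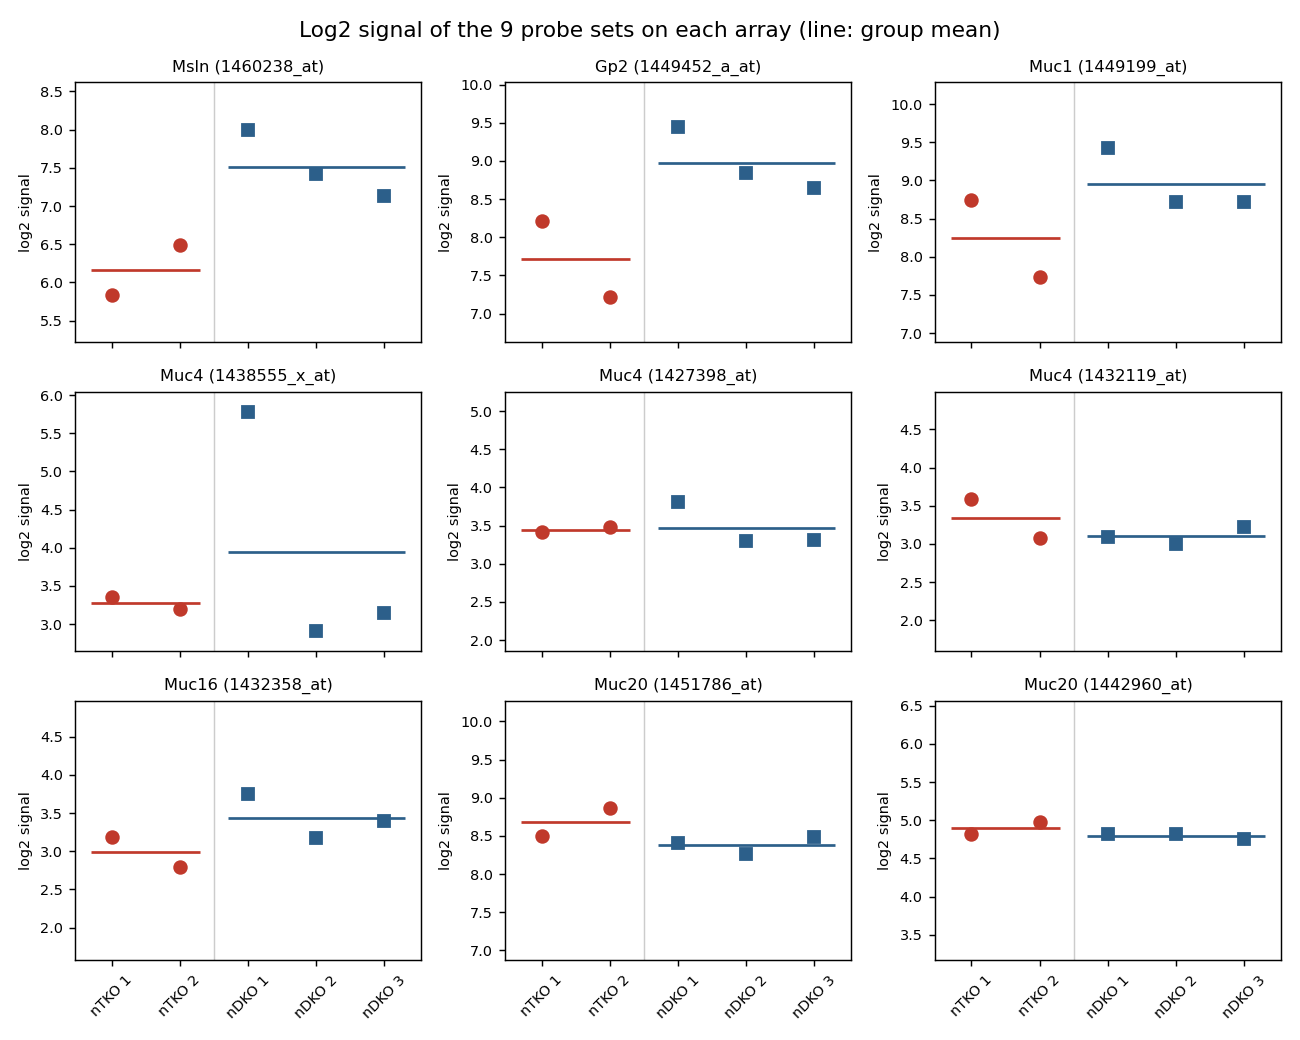
Log2 signal (y axis, the same span in every panel) of the 9 probe sets on the 2 nTKO arrays (red circles) and the 3 nDKO arrays (blue squares), with lines at the group means. Both nTKO points lie below all nDKO points for Msln (5.84 and 6.49 against 7.13 to 8.0) and Gp2 (7.22 and 8.22 against 8.64 to 9.44), and the high point of 1 Muc4 probe set is nDKO 1 alone (5.78).

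Muc1, the broadly expressed epithelial mucin, had 1 probe set with a clear signal. It measured 8.75 and 7.74 in nTKO cells, against 9.43, 8.72 and 8.72 in nDKO cells. The groups overlapped by 0.03 log2 units, since nTKO 1 was level with nDKO 2 and nDKO 3. The means were 8.25 ± 0.71 in nTKO cells (SD, n = 2) and 8.96 ± 0.41 in nDKO cells (SD, n = 3), a log2 difference of -0.71 (SE 0.41). It lay within the spread of the 2 nTKO mice, and it moved with single mice, being -0.21 without nTKO 2, -1.22 without nTKO 1 and -0.475 without nDKO 1. With log2 age as a covariate it was -1.68. It was -1.69 in the pair of like age, which for Muc1 too is the lowest array less the highest. Over the 5 arrays, the profile of Muc1 was nearer to that of Gp2 (root mean square distance 0.27 after subtracting each gene's mean) than to that of Msln (0.62).

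Muc20 was the member with higher signal in nTKO cells. Its brightest probe set measured 8.50 and 8.87 in nTKO cells, against 8.41, 8.27 and 8.48 in nDKO cells. The groups were 0.02 log2 units apart, which is 2 steps of the rounding of the deposited values, and nTKO 2 was the highest array. The means were 8.69 ± 0.26 in nTKO cells (SD, n = 2) and 8.39 ± 0.11 in nDKO cells (SD, n = 3), a log2 difference of 0.30 (SE 0.14). Leaving out nTKO 2 gave 0.11, leaving out nTKO 1 gave 0.48, and a term for log2 age gave 0.51. The second probe set of Muc20 measured 4.82 and 4.98 in nTKO cells, against 4.82, 4.82 and 4.75 in nDKO cells, a difference of 0.10 (SE 0.067) near the array medians.

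Muc4 and Muc16, mucins of wet surface epithelia, gave little signal. Of their 4 probe sets, 3 were below the median of all probe sets on every array. Muc16 measured 3.18 and 2.79 in nTKO cells, against 3.75, 3.17 and 3.40 in nDKO cells, so that the groups overlapped by 0.01 at nTKO 1 and nDKO 2. Its log2 difference of -0.455 (SE 0.22) was -0.26 without nTKO 2, -0.30 without nDKO 1 and -0.92 with a term for log2 age. Values this low are drawn towards a floor by the processing and may not follow the transcript. Whether Muc16, the known ligand of mesothelin, was transcribed is not settled by these values.

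The brightest Muc4 probe set, of the kind marked as possibly binding other transcripts, measured 3.36 and 3.20 in nTKO cells, against 5.78, 2.91 and 3.14 in nDKO cells. Its log2 difference of -0.66 (SE 1.0) came from nDKO 1 alone and was 0.255 without that mouse. The other 2 Muc4 probe sets stayed between 3.0 and 3.81 on all arrays. One had a difference of -0.028 (SE 0.19), with 3.41 and 3.48 in nTKO cells against 3.81, 3.30 and 3.31 in nDKO cells. The other had a difference of 0.23 (SE 0.18), with 3.59 and 3.08 in nTKO cells against 3.09, 3.0 and 3.22 in nDKO cells. The single high value of nDKO 1 was thus seen by 1 of 3 Muc4 probe sets, although nDKO 1 was also the highest array, by a smaller margin, for the first of the other 2.

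**Figure D2:**
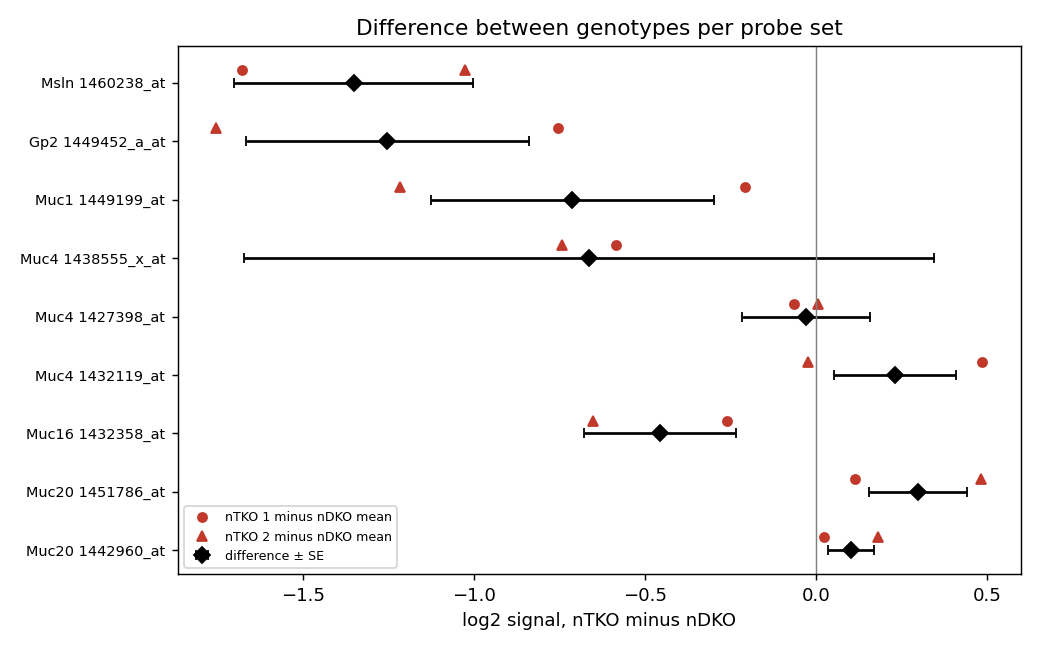
Log2 signal in nTKO minus nDKO cells (x axis) for each of the 9 probe sets, with the standard error of the limma fit over all probe sets as the bar around each diamond. The circle (nTKO 1) and the triangle (nTKO 2) give each nTKO mouse minus the nDKO mean. The 2 mice lie on the same side of 0 except for 2 Muc4 probe sets, and they change places between Msln (nTKO 1 lower) and Gp2 (nTKO 2 lower).

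Across the 6 genes by their brightest probe sets, 2 had both nTKO mice below every nDKO mouse, as 4.71% of the 18193 genes did, and 1 had both above, as 8.13% did. Nothing is read from this count, because Msln and Gp2 were picked from this contrast. Of the 9 probe sets, 6 were highest in nDKO 1, as 16.1% of all probe sets were, and those of the same gene are not independent. They were the single probe sets of Msln, Gp2, Muc1 and Muc16 and 2 of those of Muc4. nTKO 2 was lowest for Gp2, Muc1 and Muc16, and highest for both probe sets of Muc20. In the limma fit over all genes, 0 of 18193 genes (0%) had a Benjamini-Hochberg adjusted p under 0.05, with a smallest adjusted p of 0.853. Before adjustment, 689 genes (3.79%) were under 0.05. In the fit over all probe sets the count was also 0 of 45037, with 1710 (3.8%) under 0.05 before adjustment. None of the genes named below passed, and their differences are given as values.

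The genes with the nearest profiles to Msln over the 5 arrays were Tmem45b, a transmembrane protein (distance 0.15), the secreted protease Htra1 (0.23) and the GPI-anchored ephrin Efna4 (0.25), where the median over 16389 genes was 0.77. Tmem45b measured 8.10 and 8.50 in nTKO cells, against 9.99, 9.21 and 9.24 in nDKO cells. Efna4 measured 6.63 and 6.97 in nTKO cells, against 8.02, 7.86 and 7.42 in nDKO cells. Like Msln, these genes had nTKO 1 as the lowest array. Gp2 was nearest to Anxa8, a calcium-dependent phospholipid-binding annexin (0.20), the adhesion receptor Adgrg2 (0.23) and the circadian transcription factor Dbp (0.25), all lowest in nTKO 2. Anxa8 measured 9.65 and 8.88 in nTKO cells, against 11.10, 9.95 and 10.12 in nDKO cells.

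The nearest genes to Muc1 were Zfp820, a zinc finger gene (0.044), Socs6, a suppressor of cytokine signalling (0.077) and the alarmin Il33 (0.080), where the median was 0.55. Il33 measured 11.08 and 9.97 in nTKO cells, against 11.82, 11.02 and 10.88 in nDKO cells. Muc20 was nearest to the ephrin Efna5 (0.018), the nuclear receptor Pparg (0.036) and the amino acid transporter Slc43a2 (0.043), with a median of 0.23. The brightest Muc4 probe set was nearest to Lypd2, Sema3d and Tmprss11g, each high in nDKO 1 alone, and Muc16 to Stat4, Foxq1 and Srgap3. With 5 arrays and so many genes, near profiles are found for any pattern, and they are given as a description.

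**Figure D3:**
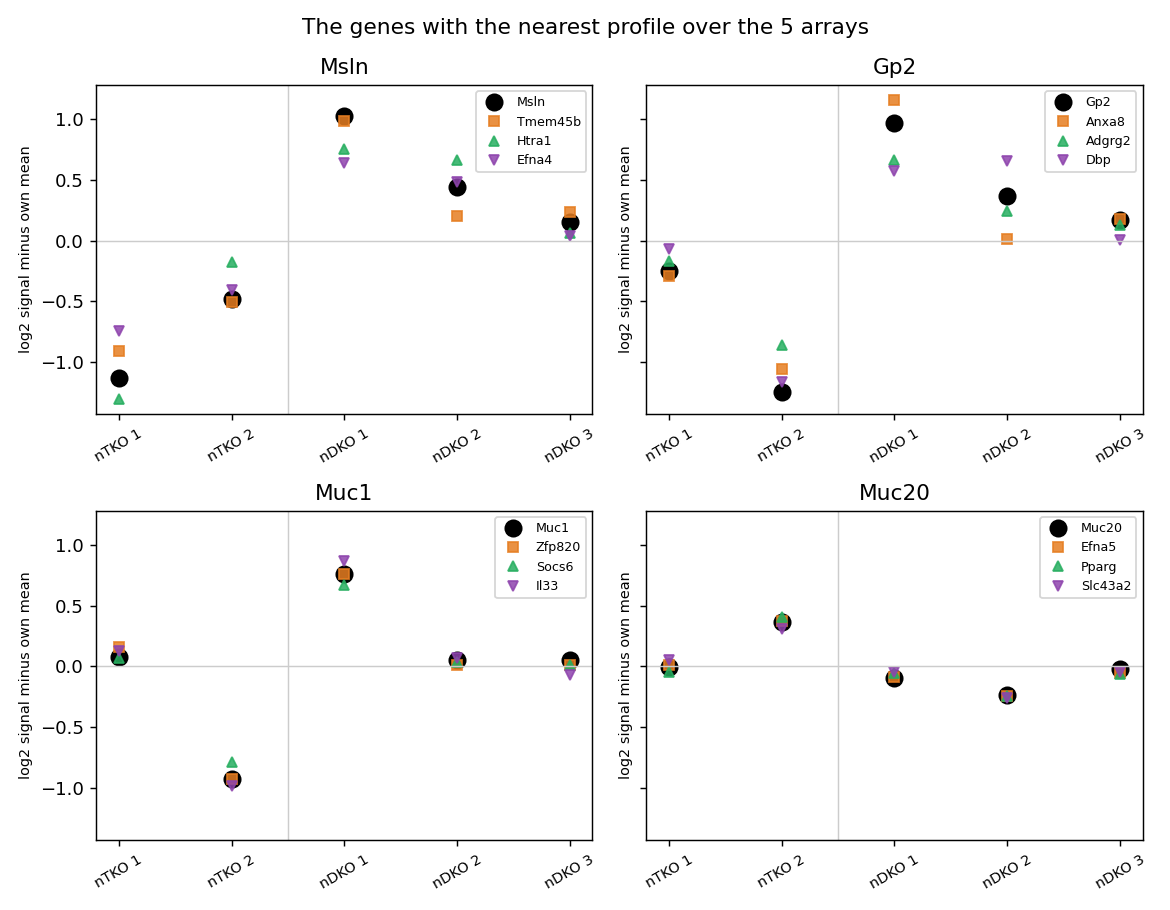
Log2 signal minus the gene's own mean over the 5 arrays (y axis) for Msln, Gp2, Muc1 and Muc20 (black circles) and the 3 genes nearest to each (coloured marks), with the nTKO arrays left of the nDKO arrays. nTKO 1 is lowest in the Msln panel, and nTKO 2 is lowest in the Gp2 and Muc1 panels. In the Muc20 panel nTKO 2 is on top, and Muc20 itself spans 0.60 log2 units.

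The medians of 9 related gene lists lay between -0.11 and 0.053. Over all genes the median log2 difference was 0.028, with 60% higher and 38.3% lower in nTKO cells. The other mucins (12 of 18 measured) had 7 higher and 5 lower members, 0 passing in either direction, and a median of 0.047. The gel-forming mucins Muc5b, Muc2 and Muc5ac had differences of -0.30 (SE 0.33), -0.033 (SE 0.13) and -0.027 (SE 0.059). Muc15, a membrane mucin, measured 6.80 and 3.20 in nTKO cells, against 6.71, 4.53 and 4.25 in nDKO cells. It was high in the 2 arrays with the high squamous median, nTKO 1 and nDKO 1, whereas Msln was lowest in nTKO 1. Podxl, a sialomucin of podocytes and stem cells, had a difference of 0.66 (SE 0.67) and was highest in nTKO 2, at 6.10 and 7.97 in nTKO cells against 5.80, 6.53 and 6.79 in nDKO cells. Cd164 had a difference of 0.20 (SE 0.14), at 12.46 and 12.64 in nTKO cells against 12.14, 12.46 and 12.46 in nDKO cells.

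The enzymes that build mucin-type O-glycans (27 of 28 measured) were split, with 14 higher, 13 lower, 0 passing and a median of 0.022. Gcnt1, which forms branched core 2 glycans, was at -0.64 (SE 0.33), with 6.85 and 5.82 in nTKO cells against 7.07, 7.0 and 6.85 in nDKO cells. Galnt12, which adds the first sugar, was at -0.535 (SE 0.73) and its relatives Galnt5 at 0.455 (SE 0.27) and Galnt13 at 0.18 (SE 0.055). Genes of GPI anchor assembly and attachment (26 of 28 measured) had 18 higher and 8 lower, 0 passing and a median of 0.053. Pigb, a mannosyltransferase of the pathway, was at 0.40 (SE 0.087), Pigl at 0.30, Pgap3 at -0.26 and Pigc at -0.42 (SE 0.14), with Pigb and Pigl higher and Pigc lower in each nTKO mouse than in any nDKO mouse.

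Other GPI-anchored surface proteins (26 of 28 measured) had 14 higher and 12 lower, 0 passing and a median of 0.0042. The ephrins went both ways, with Efna4 at -0.97 (SE 0.23) and Efna1 at 0.71 (SE 0.10). Efna1 measured 9.81 and 9.67 in nTKO cells, against 9.06, 9.14 and 8.89 in nDKO cells. The adenosine-producing enzyme Nt5e was at -0.79 (SE 0.38) and the carboxypeptidase Cpm at 1.04 (SE 0.64), both with overlapping groups. Of the proteins that share the zona pellucida domain with Gp2 (12 of 13 measured), 6 were higher, 5 lower and 1 equal, with 0 passing and a median of 0.015, and 9 were below the array medians throughout. Umod, the closest known relative of Gp2, was among those, at 2.93 and 2.90 in nTKO cells and 3.04 to 3.16 in nDKO cells. Dmbt1, a secreted scavenger protein, was at -0.32 (SE 1.12), Tgfbr3 at 0.54 (SE 0.34) and Zp3 at 0.185 (SE 0.092).

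Proteases that process or shed such proteins (17 of 17 measured) had 7 higher and 10 lower, 0 passing and a median of -0.052. Furin, which cuts the mesothelin precursor, was at 8.09 and 8.06 in nTKO cells, against 8.45, 7.96 and 7.97 in nDKO cells, a difference of -0.052 (SE 0.18). Mmp7, an epithelial matrix protease, measured 12.30 and 12.77 in nTKO cells, against 13.07, 13.04 and 12.97 in nDKO cells, a difference of -0.49 (SE 0.16). Pcsk5, a relative of furin, was at -0.50 (SE 0.39), Bace2 at 0.25 (SE 0.18) and Gpld1, which cleaves GPI anchors, at 0.30 (SE 0.064).

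Binding partners of mesothelin and the membrane mucins (19 of 19 measured) had 3 higher and 16 lower, with 0 passing and a median of -0.11. The galectin Lgals3, a mucin-binding lectin, measured 12.73 and 12.58 in nTKO cells, against 12.91, 12.97 and 12.85 in nDKO cells, a difference of -0.255 (SE 0.076). The largest differences in the list were those of Msn, which links membrane proteins to actin (-0.39, SE 0.30), and Lgals1 (-0.34, SE 0.39), and on the other side Rdx (0.145, SE 0.092) and Slc9a3r1 (0.11, SE 0.16). The receptors Erbb2 (-0.15, SE 0.16) and Met (0.09, SE 0.065) and the Muc1 partner Ctnnb1, beta-catenin (-0.033, SE 0.084), had small differences. Lgals3, Furin, Erbb2, Met, Ctnnb1, Muc2 and Muc5ac, and below Wt1, Lrrn4, Upk3b and Spib, were named after their values were seen.

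**Figure D4:**
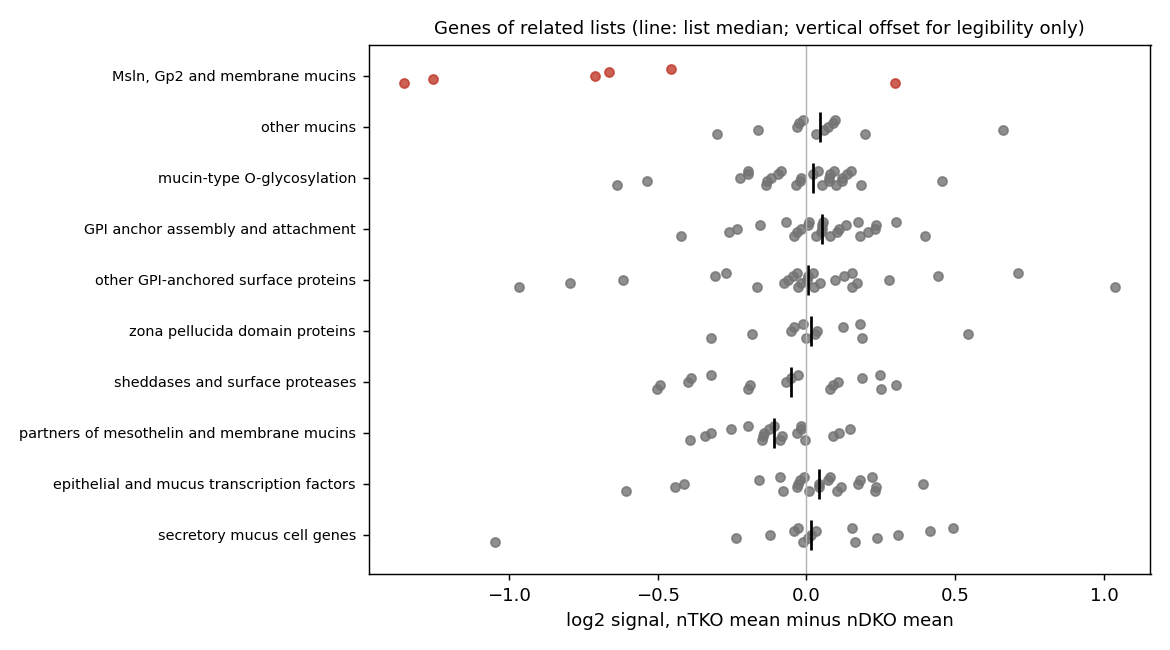
Log2 signal, nTKO mean minus nDKO mean (x axis), of the 6 genes by their brightest probe sets (top row, red) and of the genes of 9 related lists (grey), with a black line at each list's median. List medians lie between -0.11 and 0.053, while Msln (-1.35) and Gp2 (-1.25), which were picked for their difference, lie at the left.

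Msln marks mesothelial cells and Gp2 marks M cells and pancreatic acinar cells, so markers of those cells were set beside them. Mesothelial markers (12 of 12 measured) had 7 higher and 5 lower members and a median of 0.012, and array medians of 4.08 and 4.43 in nTKO cells against 4.37, 4.22 and 4.29 in nDKO cells. Of the 12, 8 were below the array medians on all arrays, among them the defining markers Wt1 (3.0 to 3.28), Lrrn4 (2.88 to 3.08) and Upk3b (4.04 to 4.27). Krt19 (13.13 to 13.67) and Upk1b (9.2 to 9.8), which other epithelia also make, were above them on every array. The ends of the list were Prg4 (-0.195) and Krt19 (-0.185), and Upk1b (0.30) and Gpm6a (0.21). M cell markers (8 of 8 measured) had 4 higher and 4 lower members and a median of 0.015, and array medians of 8.44 and 7.61 in nTKO cells against 8.60, 8.17 and 8.20 in nDKO cells. Several of them are also made by epithelial and myeloid cells, as Pglyrp1 (1.15, SE 0.43) and Ccl9 (-0.79, SE 0.52). Of the 8, 3 were below the array medians on all arrays, among them Spib, their transcription factor (3.49 to 4.12, difference -0.09). Pancreatic acinar markers (8 of 12 measured) lay at medians of 4.88 and 4.91 in nTKO cells and 4.84 to 4.88 in nDKO cells, with 6 higher, 1 lower and 1 equal. In these 3 lists 0 genes passed.

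Lists of other cells had 0 passing genes as well. Basal epithelial genes had a median of -0.40 (2 higher, 9 lower of 11) and array medians of 8.64 and 7.94 in nTKO cells against 9.0, 8.25 and 7.87 in nDKO cells, so that nDKO 1 was highest, as for Msln, Gp2 and Muc1. Without nDKO 1 the median of the list was 0.025. The squamous list had a median of -0.145 (6 higher, 10 lower of 16), the urothelial list -0.12 (2 higher, 5 lower of 7) and the prostate epithelium list 0.095 (6 higher, 4 lower of 10). Urothelial array medians were 6.57 and 6.60 in nTKO cells and 6.58 to 6.66 in nDKO cells. The seminal vesicle list had array medians of 11.38 and 9.98 in nTKO cells against 8.28, 11.45 and 12.79 in nDKO cells (5 higher, 3 lower of 8, median 0.195). It was lowest in nDKO 1, where Msln, Gp2 and Muc1 were highest. The probasin gene Pbsn, after which the driver in the labels is named, measured 3.81 and 8.15 in nTKO cells, against 3.91, 3.33 and 5.43 in nDKO cells. Whether the Pbsn signal follows the activity of the driver is not known here. Neutrophil markers (median 0.15, 8 higher, 1 lower of 9) had array medians of 6.80 and 5.73 in nTKO cells against 6.23, 5.99 and 6.33 in nDKO cells, and macrophage markers had a median of -0.045 (5 higher, 7 lower of 12). T cell, fibroblast and endothelial markers had array medians under those of all probe sets, with medians of 0.093, 0.06 and 0.054. Of the 10 fibroblast markers, 7 were below the array medians on all arrays. Dcn was not, at 6.41 and 9.52 in nTKO cells against 7.87, 9.39 and 9.03 in nDKO cells. Some of the list medians turned sign when single mice were left out. The squamous one then ran between -1.46 without nTKO 1 and 0.93 without nTKO 2, and was -2.28 with log2 age as a covariate. The seminal vesicle one ran between -0.83 without nDKO 1 and 1.06 without nDKO 3. Those of prostate epithelium (-0.31 to 0.29), macrophages (-0.44 to 0.24), neutrophils (-0.45 to 0.51) and basal epithelium (-0.55 to 0.025) also took both signs. None of the lists that took both signs has a settled direction. With 1 mouse left out, the urothelial median stayed between -0.165 and -0.04 and the T cell median between 0.022 and 0.115. The fibroblast median then stayed between 0.02 and 0.07 and the endothelial one between 0.045 and 0.102. What part these cells have in the differences of Msln, Gp2 and Muc1 was not tested.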

How the data were processed

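Log2 signals per probe set, rounded to 2 decimals, were deposited by the authors for 5 single-channel Affymetrix mouse arrays. The submitters' processing notes name RMA and the Transcriptome Analysis Console, whose versions are not given in the sources used here. Because RMA corrects background and forces equal distributions, it hides a shift shared by most genes and compresses dim probe sets. The number of arrays limits the precision, and some items are not reported here.

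Of 45037 probe sets, 34945 had 1 gene symbol in the platform annotation, 932 several and 9160 none. Each of 18193 genes was represented by its brightest single-symbol probe set on average. nTKO was compared with nDKO by limma 3.58.1 under R 4.3.3 (lmFit, eBayes with an intensity trend, no covariate or filter, two-sided, Benjamini-Hochberg threshold 0.05). Standard errors of single genes come from the gene fit and those of second probe sets from the probe set fit. The code was tested on simulated data. Motifs were searched and plots drawn with Python 3.11.15.

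The 22 gene lists (325 genes, 296 measured) were described by counts and medians. Named from each related list were the 2 highest and 2 lowest differences, and for each of the 6 genes the 3 nearest profiles among genes other than predicted ones. The members and lists were chosen with earlier results of these data known. The alternatives were dropping genes under the median level (6.32), centring arrays on their medians, quantile normalization, eBayes robust or without trend, array weights, log2 age, a replicate block, all probe sets, the mean of a gene's probe sets and leaving out each mouse. Leaving out nDKO 1 and nTKO 1 together and the pair of like age were chosen after seeing the data.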

Additional observations from a re-analysis of the deposited data

How the results depend on the processing

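The count of genes called stayed at 0 in all 16 alternatives run, with 401 to 2996 genes at an unadjusted p under 0.05 and smallest adjusted p values of 0.0513 to 0.918 (limma). With log2 age as a covariate, Gp2 was -2.21, Muc1 -1.68, Muc4 -2.09, Muc16 -0.92 and Muc20 0.51. In the pair of like age Gp2 was -2.22, Muc1 -1.69, Muc4 -2.58 and Muc16 -0.96. For Gp2, Muc1 and Muc16 this pair is the lowest array less the highest. Without both nDKO 1 and nTKO 1, Msln was -0.785 and Muc20 0.495. With 1 mouse left out, the difference ranged from -1.68 to -1.03 for Msln, -1.75 to -0.75 for Gp2, -1.22 to -0.21 for Muc1, -1.18 to 0.255 for Muc4, -0.65 to -0.26 for Muc16 and 0.11 to 0.48 for Muc20. The cause was not tested. Muc4 was 0.035 with array weights and 0.175 without both nDKO 1 and nTKO 1. Msln, Gp2, Muc1, Muc16 and Muc20 kept their direction in every alternative that gave a value. For Msln, Gp2 and Muc20 the groups did not overlap, so leaving out mice or taking the pair could not have changed the direction.

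Samples of the 2 genotypes share replicate numbers that the labels tie to no litter or day. With the replicate block, 0 genes were called and Msln was -1.545, Gp2 -1.42, Muc1 -0.83, Muc4 -1.06, Muc16 -0.475 and Muc20 0.345. Only nDKO has a replicate 3, so these differences equal those without nDKO 3. The deviations from the group means of same-numbered mice correlated at 0.42 and 0.34 across genes, which are not independent. The deviations of the 2 nTKO mice are equal and opposite, so the 2 correlations are not independent of each other either. nDKO 1 and nTKO 1 also share the high squamous median.

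Among list medians, the pancreatic list was 0.417 with the level filter, which left only Prss2 in it. The full list was 0.082 after quantile normalization, 0.074 with array weights and 0.01 without both nDKO 1 and nTKO 1 (0.03 to 0.12 with 1 mouse left out). The urothelial list was -0.08 with the level filter, -0.053 with log2 age, -0.065 with the replicate block, -0.03 without both mice and -0.08 in the pair of like age (-0.165 to -0.04 with 1 mouse left out). The fibroblast list was -0.495 with the filter, which left only Dcn and Acta2 in it. The full list was 0 without both mice and 0.115 in the pair. The basal list was -0.95 with log2 age and -1.37 in the pair. The neutrophil list was -0.616 with log2 age, -0.43 without both mice and -0.50 in the pair (-0.453 to 0.513 with 1 mouse left out). The GPI assembly list was 0.003 with the mean of all probe sets. The M cell list ranged from -0.075 to 0.457 with 1 mouse left out. The filter removed Muc4 and Muc16, which then have no value.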

Other observations

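Other groups of epithelial genes were split in the same comparison, with 0 genes passing (limma, smallest adjusted p 0.853 over all genes). Of 23 epithelial and mucus transcription factors, 13 were higher and 10 lower in nTKO cells, with a median of 0.042. Klf5, a factor of basal and proliferating epithelium, measured 11.10 and 11.09 in nTKO cells, against 11.80, 11.69 and 11.61 in nDKO cells, a log2 difference of -0.605 (SE 0.076, limma adjusted p = 0.853). Elf5 was at -0.44 (SE 0.65), Spdef, a driver of secretory fate, at 0.39 (SE 0.31) and Sox9 at 0.23 (SE 0.44).

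Of 15 secretory mucus cell genes, 9 were higher and 6 lower, with a median of 0.017. Agr2, a disulfide isomerase needed for mucin folding in the mouse gut, measured 10.77 and 10.88 in nTKO cells, against 10.24, 10.30 and 10.46 in nDKO cells (0.49, SE 0.092), and the trefoil peptide Tff3 was at 0.415 (SE 0.18). Clca1, a protease of the mucus layer, was at -1.04 (SE 0.89), with 9.05 and 7.58 in nTKO cells against 10.58, 8.15 and 9.35 in nDKO cells, and Scgb1a1 was at -0.24 (SE 0.10).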
